A study of Mus musculus with 12 samples.

Results

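Dio1, Slc16a10, Serpina7, Ttr and Thrsp take thyroid hormone from its carriers in blood to its action in the liver cell. These 5 genes, of 18193 measured, were chosen by name as the deiodinase, the transporter, both plasma carriers and a target gene. For each, the probe set annotated to it with the highest mean over the 12 arrays was used. The choice was made with the levels in the 3 groups already known, so the levels and differences of these 5 genes are descriptions and carry no test.

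Livers came from mice aged 3 months on the C57Bl/6 strain. The 3 groups of 4 arrays each were wild type without any agent, Atp7b-/- without any agent and Atp7b-/- treated with zinc. Atp7b is the ATPase that moves copper from hepatocytes into bile, and mice without it store copper in the liver. The sources used here do not give the construction of the Atp7b allele, the zinc dose and duration, the sex of the mice or whether every array is a separate animal. All p-values therefore measure only array-to-array spread, which may in part be technical. Values are log2 intensities from Affymetrix mouse expression arrays, and 1 log2 unit is a change of 2-fold.

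The thyroid gland secretes mainly the prohormone T4, which circulates bound to thyroxine-binding globulin (the product of Serpina7), transthyretin (Ttr) and albumin. Membrane transporters such as MCT10 (Slc16a10) carry the hormone across cell membranes. Inside the liver cell the type 1 deiodinase (Dio1), a selenium-containing enzyme, removes iodine from T4 to make active T3 and also clears inactive iodothyronines. T3 binds the nuclear receptors Thra and Thrb, which pair with retinoid X receptors and change transcription of target genes, among them Thrsp (Spot 14), a regulator of fatty acid synthesis, and Dio1 itself. Circulating hormone was not measured here.

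The liver label was borne out by 6 measured hepatocyte markers, whose mean level lay between 14.18 and 14.31 on every array. Zinc-treated arrays 2 and 3 carried transcripts of pancreatic acinar cells: the mean of 7 markers was 9.36 and 6.52 there, against 4.88 to 5.21 on the other 10 arrays. The mean of 3 adipocyte markers was 5.79 on zinc-treated array 2 and 4.50 to 4.88 on the 10 arrays without acinar transcripts. The mean levels of the marker lists of kidney tubule (4.43 to 4.70), thyroid follicle (4.90 to 5.23) and pancreatic islet (4.77 to 5.05) lay below the array medians of 5.63 to 5.71, although single markers reached 6.72, 6.61 and 6.59. Of 6 macrophage markers 4 fell in untreated mutants against wild type (limma, adjusted p under 0.05), as did 10.3% of all genes. The mean level of the 6 ranged from 7.37 to 8.25 on wild type and from 6.95 to 8.03 on untreated mutant arrays. On zinc-treated arrays it was 7.17 to 7.42. The gap between 3' and 5' control probe sets for actin and Gapdh, which grows with RNA degradation, was widest in the untreated mutants, at 0.79 to 0.88. It was 0.62 to 0.78 on wild type arrays and 0.54 to 0.74 on zinc-treated ones. RNA quality and the untreated Atp7b-/- group therefore cannot be told apart in any comparison that uses these arrays. In whole liver RNA, fewer cells of a type and less RNA per cell cannot be told apart either. The targeted gene, Atp7b, was 8.51 to 8.69 in wild type, 6.91 to 7.25 in Atp7b-/- and 6.57 to 6.98 with zinc. Averaging its probe sets took the difference from wild type from -1.49 to -0.90 in untreated and from -1.77 to -0.96 in zinc-treated mutants.

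**Figure D1:**
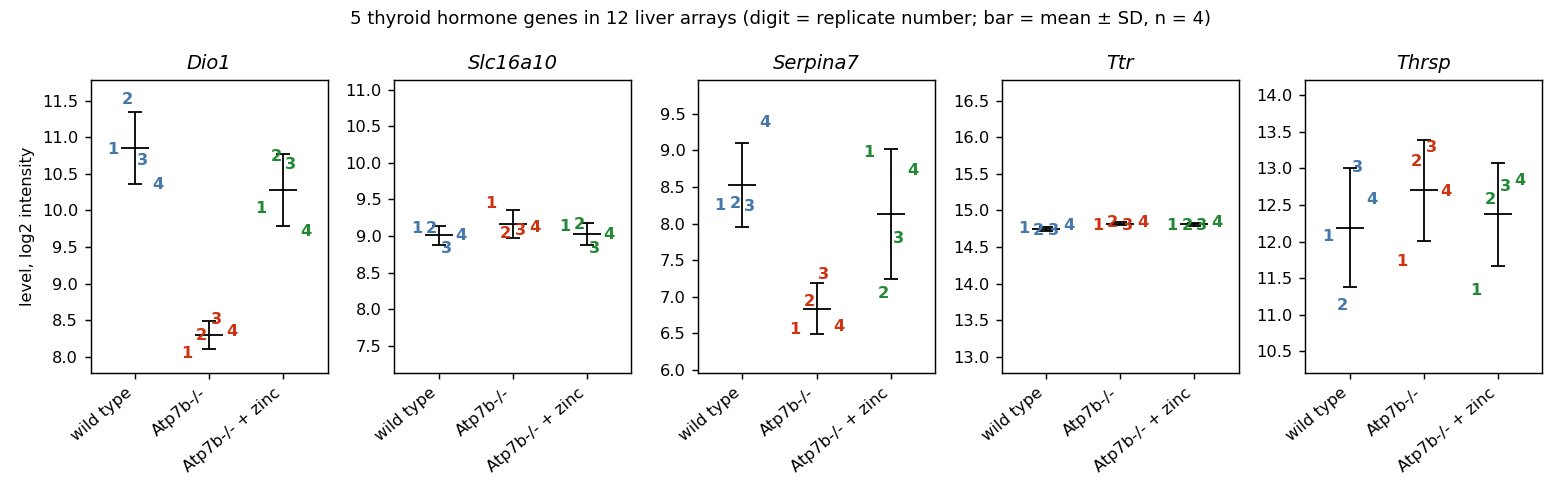
Level (log2 intensity) of the 5 genes on each array, in panels of their own vertical axis that span at least 4 log2 units. Digits are replicate numbers, and black bars are the group mean ± SD (n = 4). Dio1 and Serpina7 are lower on all untreated Atp7b-/- arrays than on any wild type array, Slc16a10 and Ttr stay level, and Thrsp spreads within every group.

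Of the 5 genes, 2 set untreated Atp7b-/- liver apart from wild type, both lower: the activating enzyme Dio1 and the carrier Serpina7. Over all genes the arrays of these groups did not overlap in 26.4%, with Atp7b-/- lower in 12.1% and higher in 14.3%. The arrays of Slc16a10, Ttr and Thrsp overlapped or met. Only Dio1 separated zinc-treated from untreated Atp7b-/- liver, with zinc higher. Of all genes 15.3% separated there, 5.93% with zinc higher and 9.39% with zinc lower. None of the 5 separated zinc-treated Atp7b-/- from wild type, where 14.3% of all genes separated, 7.88% with zinc higher and 6.45% with zinc lower. Since these contrasts were known when the genes were picked, nothing is read from those counts. The median difference of the 5 genes was 0.06 between untreated mutants and wild type, -0.01 between both mutant groups and 0.02 between zinc-treated mutants and wild type, beside -0.05, 0.01 and -0.02 over all genes.

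The level of Dio1 (gene 13370, chromosome 4, 107291465 to 107307168 in GRCm38) was 10.83, 11.52, 10.68 and 10.36 on wild type arrays 1 to 4. Untreated mutant arrays 1 to 4 read 8.05, 8.29, 8.51 and 8.34, and zinc-treated arrays 1 to 4 read 10.03, 10.73, 10.63 and 9.71. The untreated mutants lay below every other array, with a gap of more than 1 log2 unit, while the zinc-treated and wild type ranges overlapped. Group means were 10.85 ± 0.49 (SD, n = 4), 8.30 ± 0.19 and 10.28 ± 0.49. Untreated mutants were thus 5.85-fold below wild type (-2.55 on the log2 scale), the difference that ranked number 6 among the falls of 18193 genes. With zinc the level was 3.94-fold above the untreated mutants (1.98), number 7 among the rises, and 1.48-fold below wild type (-0.57). Zinc-treated arrays 2 and 3, which carried acinar transcripts, were the higher pair of their group. Without them the difference from untreated mutants was 1.57 and that from wild type -0.98. Leaving out any single array kept the difference between untreated mutants and wild type between -2.71 and -2.33.

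The level of Serpina7 (gene 331535, chromosome X, 139079249 to 139085236) was 8.25, 8.27, 8.23 and 9.38 on wild type arrays 1 to 4. Untreated mutant arrays read 6.55, 6.93, 7.30 and 6.59 in that order, and zinc-treated arrays 8.97, 7.05, 7.79 and 8.72. Every untreated mutant lay below every wild type array, by a group difference of -1.69 or 3.23-fold (8.53 ± 0.57 against 6.84 ± 0.35, SD, n = 4). That difference ranked number 26 among the falls. The zinc-treated arrays spread over both other groups, at 8.13 ± 0.89, so that they did not separate from either. Arrays 1 and 4 lay within the wild type range, whereas array 2 lay within the untreated mutant range and array 3 between the groups. Arrays 2 and 3, the lower pair for Serpina7, were the higher pair for Dio1 and the arrays with acinar transcripts, whose part in these values was not tested. Without them the difference of zinc-treated from untreated mutants was 2.00 in place of 1.29, and that from wild type was 0.31 in place of -0.40. The order of zinc-treated and wild type liver therefore turned with those arrays, and the means differed by less than the SD of either group with all arrays in.

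The sequences upstream of Dio1, Serpina7 and Thrsp are shown because the first pair was low together in untreated mutants while Thrsp was not. Each is the 250 bases before the start of transcription, from RefSeq on GRCm38.p6, 5′ to 3′ on the minus strand, which carries all 3 genes. Capitals mark matches on either strand to 5 motifs that do not overlap each other here: AGGTCA (the core that thyroid hormone receptors and related nuclear receptors bind), GTTAAT (part of the site of the liver factor HNF1), CCAAT (the site of NF-Y), TATAAA (the TATA box) and CACGTG (the E-box of carbohydrate and lipid regulators). Serpina7 has 2 listed starts, of which the first in the table was used.
Dio1, chr4:107307169-107307418: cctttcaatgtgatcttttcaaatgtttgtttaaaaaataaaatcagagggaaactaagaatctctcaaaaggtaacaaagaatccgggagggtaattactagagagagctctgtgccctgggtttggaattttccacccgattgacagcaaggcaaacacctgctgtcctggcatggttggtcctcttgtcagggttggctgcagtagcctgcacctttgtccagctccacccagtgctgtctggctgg
Serpina7, chrX:139085237-139085486: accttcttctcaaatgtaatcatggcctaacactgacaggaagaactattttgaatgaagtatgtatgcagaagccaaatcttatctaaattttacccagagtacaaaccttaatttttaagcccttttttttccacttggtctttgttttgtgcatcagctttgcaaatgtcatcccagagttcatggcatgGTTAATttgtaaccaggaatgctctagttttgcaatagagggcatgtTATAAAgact
Thrsp, chr7:97417551-97417800: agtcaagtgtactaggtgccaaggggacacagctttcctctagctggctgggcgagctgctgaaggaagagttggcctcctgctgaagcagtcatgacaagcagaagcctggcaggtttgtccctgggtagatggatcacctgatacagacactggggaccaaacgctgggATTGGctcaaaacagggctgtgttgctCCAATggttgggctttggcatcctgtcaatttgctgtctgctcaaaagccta
The Serpina7 window held GTTAAT from 57 bases and TATAAA from 10 bases before the start. The Thrsp window held CCAAT on both strands, from 79 and 52 bases before the start, and the Dio1 window held none of the 5 motifs. Of 27025 windows of the same length, 6.5% held GTTAAT, 13.0% TATAAA and 34.5% CCAAT, while 13.8% held AGGTCA and 6.0% CACGTG. A match is no sign of binding, and no match says only that these letters are not in this window. The Dio1 and Serpina7 windows shared none of the 5 motifs. The window of Slc16a10, which stayed level and is not printed here, held GTTAAT from 232 bases before the start. It also held CCAAT on both strands, from 150 and 108 bases. GTTAAT was therefore not confined to a gene that was low in untreated mutants.

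Slc16a10 (gene 72472, chromosome 10, 40033532 to 40142270), which codes for a transporter of aromatic amino acids and iodothyronines, stayed level. Wild type arrays read 9.11, 9.11, 8.83 and 9.01, untreated mutants 9.44, 9.03, 9.07 and 9.12, and zinc-treated mutants 9.13, 9.16, 8.83 and 9.02. All 3 ranges overlapped, and group differences (0.15, -0.13 and 0.02) were within or near the SDs of 0.13 to 0.19. A second probe set of similar mean level gave 0.08, -0.10 and -0.02. The other probe sets, with means of 6.76 and 5.44, departed from this. On the first of them untreated mutants (6.80 to 7.34) lay above wild type (6.44 to 6.69) by 0.51, and on the second zinc-treated mutants (4.90 to 5.42) lay below wild type (5.53 to 5.93) by 0.43. The sources used here do not say which part of the transcript each probe set reads.

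Ttr (gene 22139, chromosome 18, 20664209 to 20674326), which in blood also carries retinol through retinol-binding protein, varied least of the 5. Wild type arrays read 14.75, 14.73, 14.73 and 14.80, untreated mutants 14.80, 14.83, 14.80 and 14.84, and zinc-treated mutants 14.80, 14.80, 14.80 and 14.84. The arrays spanned 0.11 log2 units in all, and untreated mutants met wild type at 14.80. Its 3 other probe sets differed between untreated mutants and wild type by -0.05, 0.04 and 0.01. The table's maximum is 15.24, so all Ttr values sit near the top of the scale.

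**Figure D2:**
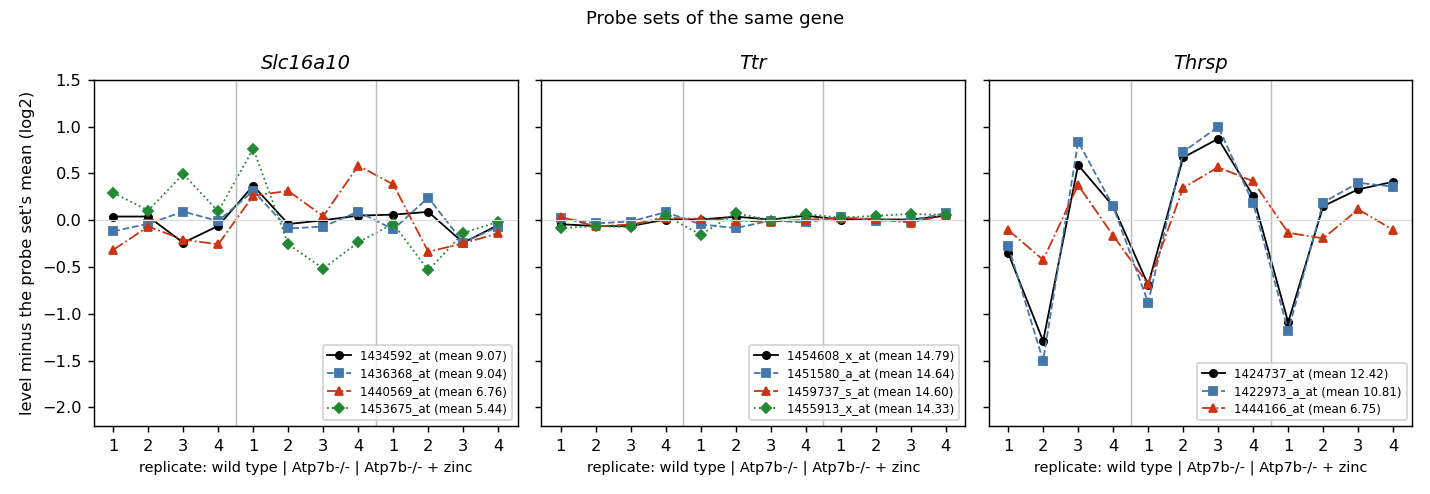
Level of every probe set of Slc16a10, Ttr and Thrsp minus its own mean over 12 arrays (log2), by array and group, with the probe set's mean in the legend. The 3 Thrsp probe sets drop together on Atp7b-/- array 1, the 4 Ttr probe sets stay within 0.2 of their means, and the 2 dimmer Slc16a10 probe sets move apart from the brighter pair.

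Thrsp (gene 21835, chromosome 7, 97412933 to 97417550) differed more between arrays of a group than between groups. Wild type arrays read 12.07, 11.13, 13.01 and 12.57, untreated mutants 11.73, 13.09, 13.29 and 12.68, and zinc-treated mutants 11.33, 12.57, 12.75 and 12.83. The lowest arrays of the groups read 11.13, 11.73 and 11.33, with the next at 12.07, 12.68 and 12.57. No Thrsp value met the rule for outlying values in the closing section, and the ranges overlapped throughout. Group means were 12.19 ± 0.81, 12.70 ± 0.69 and 12.37 ± 0.70 (SD, n = 4), so that the differences of 0.50, -0.33 and 0.18 were smaller than the SDs. Leaving out 1 array moved them to between 0.15 and 0.82, -0.65 and 0.02, and -0.18 and 0.52, so that the differences of zinc-treated mutants from either group changed sign. The lowest arrays decided this: without zinc-treated array 1 the difference from untreated mutants was 0.02, and without wild type array 2 that from wild type was -0.18. The mean SD within groups, 0.73, exceeded that of 99.6% of all genes. A second probe set gave differences of 0.46, -0.32 and 0.14, and the third, with a mean of 6.75, gave 0.24, -0.24 and 0.00. On zinc-treated array 1 the third probe set read 6.62, near its group mean of 6.67, and was lowest on array 2 (6.56).

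On the wild type and untreated mutant arrays lowest in Thrsp, much of fatty acid synthesis, the process that Thrsp promotes, was low too. On the zinc-treated array lowest in Thrsp the share of these genes at their lowest was near that of all genes, and the groups were not tested against each other. The genes compared were Fasn and Acaca, which make the fatty acid chain, Me1, Mlxipl and 10 further genes of lipid synthesis. On wild type array 2, where Thrsp was 1.42 below the mean of the other 3 arrays, 11 of the 14 genes were at their lowest in the group, as were 30.8% of all genes. Fasn stood at 10.55 there, 1.17 below the other 3. On Atp7b-/- array 1, with Thrsp 1.29 lower, 13 of the 14 were at their lowest, as were 31.7% of all genes, and Fasn was 1.57 lower. On zinc-treated array 1, with Thrsp 1.39 lower, 4 of the 14 were at their lowest (Me1, Acly, Acacb and Pnpla3), as were 25.1% of all genes, and Fasn was 0.32 lower. Fasn, Acaca, Mlxipl, Mid1ip1, Scd1, Elovl5, Elovl6 and Srebf1 were lowest on zinc-treated array 2 instead, and Fads1 and Fads2 on array 3. Arrays 2 and 3 carried acinar transcripts, and their part in this count and in the mean of the other 3 arrays was not tested. The median difference of the 14 genes was -0.55, -0.42 and -0.12 in the 3 groups in that order, beside -0.03, 0.01 and 0.00 over all genes. Of the 10 genes of lipid synthesis that belong to no thyroid list, 2 fell in untreated mutants against wild type, the desaturase Fads2 by 0.47 (adjusted p = 0.0245) and the elongase Elovl5 by 0.38 (adjusted p = 0.0321), beside 10.3% of all genes lower. Each call was lost in 5 of 22 other settings, and averaging probe sets gave -0.14 for Fads2. Mid1ip1, the close relative of Thrsp, differed by 0.04, -0.35 and -0.31 in the 3 comparisons and passed in none. The sources used here give neither feeding state nor time of day at collection.

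**Figure D3:**
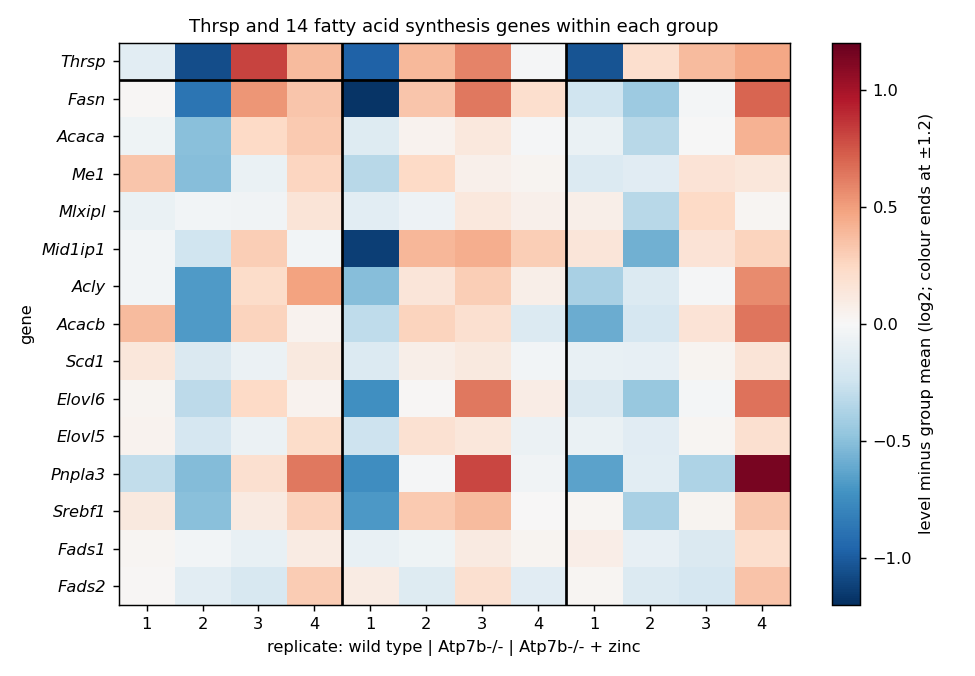
Level of Thrsp (top line) and 14 genes of fatty acid synthesis on each array minus the mean of its group (log2, blue below and red above). Wild type array 2 and Atp7b-/- array 1 are blue for Thrsp and nearly all other genes, and zinc-treated array 1 is blue for Thrsp and for fewer of the others.

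The rest of the pathway was read from 6 lists of 57 genes in all, of which 47 were measured and 42 are not among the 5 genes described above. These 42 were tested with limma over all 18193 genes, and a gene counts as risen or fallen at a Benjamini-Hochberg adjusted p under 0.05. In untreated Atp7b-/- against wild type, 6 of the 42 rose and 10 fell, where 24.6% of all genes were called, 14.3% higher and 10.3% lower. The median difference of the 42 was -0.09, beside -0.05 over all genes. Under quantile normalization the calls over all genes turned from 2608 higher and 1872 lower to 2139 higher and 2251 lower, and those of the 42 genes became 6 higher and 13 lower. With zinc against untreated, 2 rose and 3 fell, where 6.54% of all genes were called, 1.70% higher and 4.84% lower. In zinc-treated mutants against wild type, 1 rose and 2 fell, where 7.62% of all genes were called, 4.89% higher and 2.73% lower. The medians of the 42 genes there were 0.00 and -0.06, beside 0.01 and -0.02 over all genes. RNA quality moved with the untreated mutants, as given above, and its part in these counts was not tested.

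**Figure D4:**
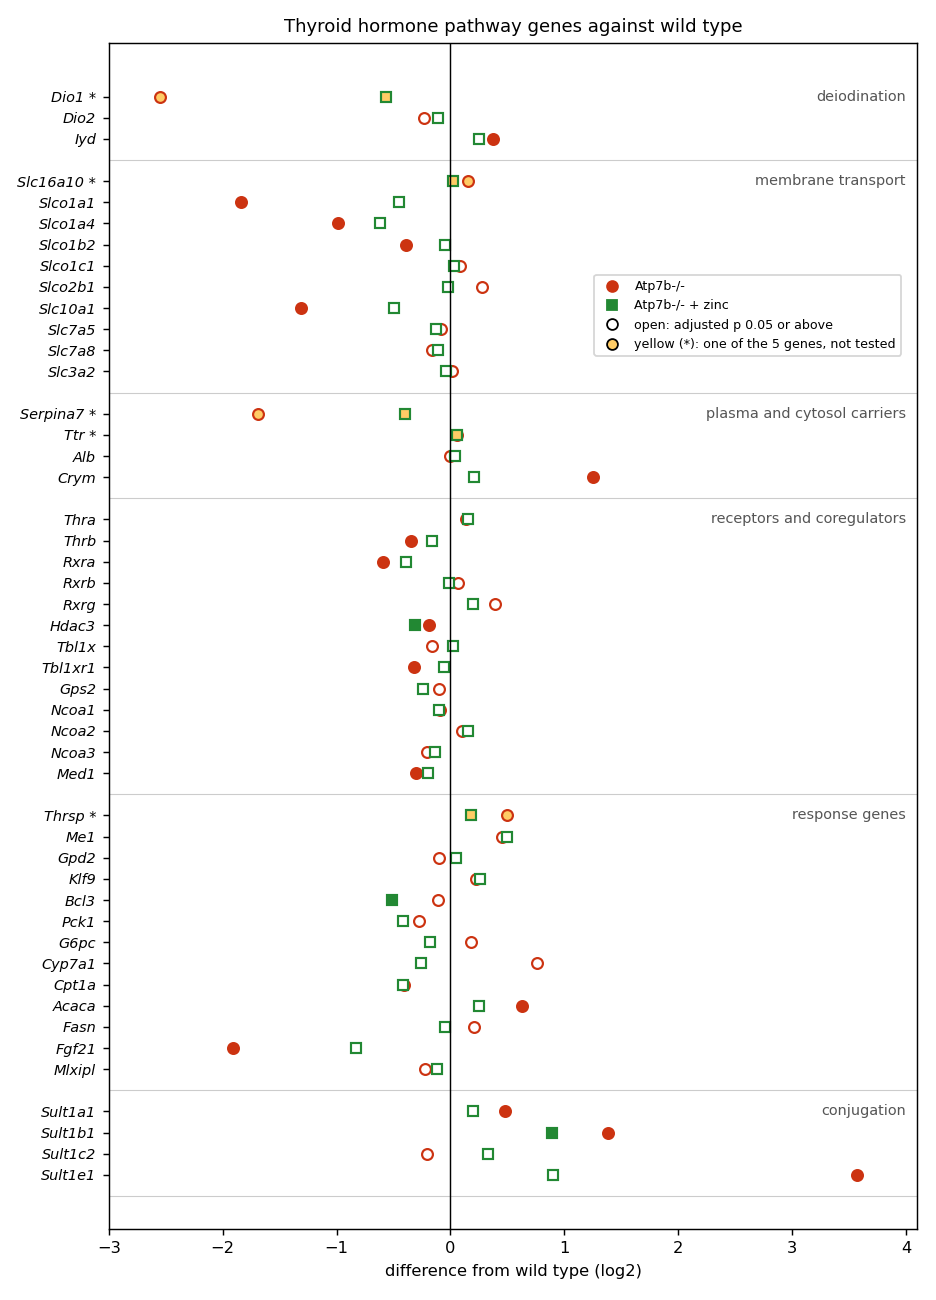
Difference from wild type (log2) of 47 thyroid pathway genes, as red circles for untreated Atp7b-/- and green squares for zinc-treated Atp7b-/-. Filled marks passed the limma test at an adjusted p under 0.05, open marks did not, and yellow marks are the 5 genes described without a test. Among filled red circles, Sult1e1 lies furthest above 0, and Fgf21 and Slco1a1 lie furthest below it.

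Among deiodinating enzymes, Iyd, which recovers iodide from iodotyrosines, rose in untreated mutants by 0.37 (11.33 ± 0.04 to 11.70 ± 0.04, n = 4, adjusted p = 0.00203). Dio2, the deiodinase that makes T3 in brain and brown fat, differed by -0.23 and did not pass (adjusted p = 0.149). Dio3 was not analysed here.

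Of 9 other membrane transporters, 4 fell in untreated mutants and 0 rose, beside 10.3% of all genes lower and 14.3% higher. The 4 were the organic anion transporters Slco1a1, Slco1a4 and Slco1b2 and the bile salt transporter Slc10a1, all of which also take up iodothyronines or their conjugates. Slco1a1 read 12.98, 12.77, 12.98 and 12.98 on wild type arrays, 9.67, 11.59, 11.83 and 11.26 on untreated mutant arrays, and 12.54, 12.51, 12.59 and 12.27 on zinc-treated arrays. The 3 groups did not overlap, with zinc between the others. The difference of -0.45 between zinc-treated mutants and wild type did not pass (adjusted p = 0.487), and 14.3% of all genes did not overlap there. Slco1a1 fell by 1.84 in untreated mutants (adjusted p = 0.00147), and with zinc the level was 1.39 higher than without (adjusted p = 0.0265). Slc10a1 fell by 1.31 (adjusted p = 0.000719) and was 0.82 higher with zinc (adjusted p = 0.0406). Both calls with zinc were unsteady: that of Slco1a1 was lost in 7 and that of Slc10a1 in 11 of 22 other settings, including the fit without zinc-treated arrays 2 and 3. Slco1a4 fell by 0.99 (adjusted p = 0.00473) and Slco1b2 by 0.39 (adjusted p = 0.0138; -0.69 when its probe sets were averaged), and neither passed between zinc-treated and untreated mutants. The amino acid transporters Slc7a5, Slc7a8 and Slc3a2, which also carry iodothyronines, did not pass in any comparison. Slc7a8 read 4.41 to 4.77, little above the lower quartiles of the arrays (4.13 to 4.29), so its lack of a call says little.

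Among the other binding proteins, albumin (Alb) differed from wild type by 0.00 in untreated and 0.04 in zinc-treated mutants, at array levels of 14.98 to 15.09, near the top of the scale like those of Ttr. Crym, which binds T3 in the cytosol, rose by 1.25 in untreated mutants (4.12 ± 0.14 to 5.37 ± 0.65, n = 4, adjusted p = 0.00296). Wild type arrays read 3.93 to 4.27, near the lower quartiles of the arrays (4.13 to 4.29). With zinc it was 1.04 lower than without (adjusted p = 0.0273), a call lost in 5 of 21 other settings, among them the fits without zinc-treated array 2, without array 3 and without both. Rbp4, the retinol-binding protein that travels with transthyretin, fell by 0.32 in untreated mutants (adjusted p = 0.00175), from 14.20 to 14.25 in wild type to 13.86 to 13.95. With zinc its arrays (14.10 to 14.18) lay between those ranges. Against wild type the zinc-treated difference of -0.08 did not pass (adjusted p = 0.485). Against untreated mutants that of 0.24 passed (adjusted p = 0.0312), a call lost in 10 of 22 other settings.

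Of 13 receptors and coregulators, 5 fell in untreated mutants and 0 rose, beside 10.3% of all genes lower and 14.3% higher. Thrb, the main thyroid hormone receptor of liver, fell by 0.35 (6.53 ± 0.18 to 6.18 ± 0.12, n = 4, adjusted p = 0.0274), and Thra differed by 0.14 without passing (adjusted p = 0.405). The call of Thrb was lost without wild type array 2, 3 or 4 or without Atp7b-/- array 1. Rxra, the main retinoid X receptor of liver, fell by 0.59 (10.12 ± 0.19 to 9.54 ± 0.11, adjusted p = 0.00427). The other falls were Med1, a subunit of the Mediator coactivator (0.30, adjusted p = 0.0048), Tbl1xr1, a part of the corepressor complex (0.32, adjusted p = 0.0219), and its deacetylase Hdac3. The call of Tbl1xr1 was lost in 4 of 22 settings, and averaging its probe sets gave -0.18. Hdac3 fell by 0.19 (adjusted p = 0.0495), a call lost in 16 of 22 settings. It also fell in zinc-treated mutants against wild type, by 0.31 (adjusted p = 0.00901), and without zinc-treated arrays 2 and 3 that did not pass. None of the 13 passed between zinc-treated and untreated mutants.

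Of 12 other genes that T3 raises in rodent liver, 1 rose and 1 fell in untreated mutants, and 10 did not pass. Of all genes 14.3% rose and 10.3% fell there. Fgf21, a hormone that the liver secretes in fasting, read 6.67, 7.05, 7.30 and 9.12 on wild type arrays, 5.83, 5.44, 5.64 and 5.59 on untreated mutant arrays, and 7.38, 6.28, 6.11 and 7.03 on zinc-treated arrays. The untreated mutants lay below every other array, and wild type array 4, also the highest for Serpina7, stood apart. It fell by 1.91 in untreated mutants (adjusted p = 0.00551), and the difference of 1.07 with zinc did not pass (adjusted p = 0.155). Acaca, acetyl-CoA carboxylase, rose by 0.63 (adjusted p = 0.0201), but averaged over its probe sets the difference was 0.20 and did not pass. Among T3 targets that did not pass, Me1 differed by 0.45 (adjusted p = 0.0721), Klf9 by 0.22, Gpd2 by -0.10 and Cpt1a by -0.41. Bcl3, which codes for a transcriptional coregulator, was lower with zinc than in wild type by 0.51 (adjusted p = 0.00413) and than in untreated mutants by 0.40 (adjusted p = 0.0217). The second of these calls was lost in 7 of 22 settings.

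Of 4 measured sulfotransferases, 3 rose in untreated mutants and 0 fell, beside 14.3% of all genes higher and 10.3% lower. Sulfation marks iodothyronines for breakdown by Dio1. Sult1e1, estrogen sulfotransferase, read 4.23, 4.27, 4.15 and 4.32 on wild type arrays, 9.35, 7.27, 7.22 and 7.41 on untreated mutant arrays, and 4.55, 6.78, 4.92 and 4.32 on zinc-treated arrays. The rise of 3.57 (adjusted p = 0.000229) started from a level about as dim as that of Crym. Between zinc-treated and untreated mutants it differed by -2.67 (adjusted p = 0.00773). Zinc-treated array 2 was the highest of its group, and without arrays 2 and 3 the difference was -3.37. Sult1b1 rose by 1.38 (8.54 ± 0.30 to 9.93 ± 0.16, n = 4, adjusted p = 1.05e-05) and was still 0.89 above wild type with zinc (adjusted p = 0.00137). Sult1a1 rose by 0.48 (adjusted p = 0.0193), a call lost without Atp7b-/- array 4.

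Dio1 needs selenocysteine, and the 7 genes of its insertion machinery moved both ways in untreated mutants, 3 up and 1 down, beside 14.3% of all genes higher and 10.3% lower. Pstk, the kinase that prepares the charged tRNA, rose by 0.51 (adjusted p = 0.00026) and Eefsec, the elongation factor for selenocysteine, by 0.49 (adjusted p = 0.00117). Sepsecs, the synthase, rose by 0.24 (adjusted p = 0.0247), a call lost in 6 of 22 settings, and Secisbp2, which binds the selenocysteine element of mRNAs, fell by 0.28 (adjusted p = 0.021). The call of Secisbp2 was lost without wild type array 2 or Atp7b-/- array 4, and averaging its probe sets gave -0.52. None of the 7 passed between zinc-treated and untreated mutants. Of 16 other selenoproteins, 4 rose and 1 fell in untreated mutants, where 24.6% of all genes were called. Among those that rose, the thioredoxin reductase Txnrd1 did so by 0.64 (adjusted p = 0.000446), but by only 0.06 when its probe sets were averaged. The same averaging took Txnrd2, its mitochondrial relative, from 0.47 to 0.15, where it did not pass. Selenow rose by 0.50 (adjusted p = 0.00297), a call lost when probe sets that may read several transcripts were left out (0.21). Selenoh, a nuclear selenoprotein, rose most, from 8.55 ± 0.25 to 11.37 ± 0.13 (2.82, n = 4, adjusted p = 3.05e-09), and was at 10.81 ± 0.15 with zinc. Msrb1, a methionine sulfoxide reductase, was the single member of the list that fell (by 0.36, adjusted p = 0.00312).

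Candidates for likeness were 8859 genes of above-median mean level, with clone and predicted gene names left out. Among them, the genes most like each of the 5 were ranked by Pearson's r over 12 arrays. Since the arrays form 3 groups, r and Spearman's rho serve only as measures of likeness. For Dio1 they were Ccdc30 (r = 0.958, rho = 0.951), the Wnt receptor gene Fzd8 (r = 0.955, rho = 0.923) and the interferon-inducible GTPase gene Irgm2 (r = 0.946, rho = 0.902). For Serpina7 they were the thiolase gene Acat1 (r = 0.948, rho = 0.930), Albfm1 (r = 0.938, rho = 0.965) and Epas1, which codes for HIF-2α (r = 0.932, rho = 0.958). For Thrsp the closest was the mitochondrial carrier gene Slc25a25 (r = 0.876, rho = 0.811), for Slc16a10 Ubxn1 (r = 0.910, rho = 0.818) and for Ttr Echdc3 (r = 0.958, rho = 0.888). Over the 12 arrays Ttr spanned only 0.11 and Slc16a10 0.62 log2 units, so their likeness rests on small differences.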

How the data were processed

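The deposited table holds log2 expression values of 45101 probe sets on 12 arrays, as the authors deposited them. The sources used here do not state their normalization, and array medians lay between 5.63 and 5.71. No value is missing, and no further scaling was applied. Of its probe sets, 34945 are listed with 1 gene symbol (932 with several, 9160 with none, 64 controls), and symbols were updated through RefSeq for GRCm38.p6, which matched 34741. The probe set with the highest mean stood for a gene. Groups and replicate numbers came from the sample titles. One limma 3.58.1 fit (R 4.3.3) of group means over all 12 arrays gave 3 contrasts, with Benjamini-Hochberg adjustment over 18193 genes. The fit was tested on simulated data. The 5 genes and all lists were chosen with earlier results of these data known. Beyond the 5, the genes named were the called genes of each list, up to 6 by smallest adjusted p, preset partners of the 5, and the 3 genes most like each. Rbp4, the carriers, selenoproteins and Slc16 genes follow the same rule, and genes that did not pass are named as examples chosen after their values were seen. Alternatives are given in the closing section. The number of arrays limits the precision.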

Additional observations from a re-analysis of the deposited data

Results flagged for a closer look

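Within groups of 4 arrays, a value was singled out when its gap to the nearest other array took up more of the group's range than Dixon's critical value allows. Chance does so in about 1 of 20 groups. Here 15 values in 186 groups of 62 genes met it, 1 of them among the 5 genes described without a test: Serpina7 in wild type array 4, at 9.38 with the next array at 8.27. On the same array Albfm1 (9.90, next 9.23), Echdc3 (10.53, next 10.21) and Snx33 (7.65, next 7.35) were also high. Albfm1 was named for its likeness to Serpina7 over these same 12 arrays, and Echdc3 and Snx33 for theirs to Ttr. Wild type array 4 was also the highest of its group for Ttr (14.80). Shared arrays of such genes therefore follow in part from how they were picked, and the count of 15 cannot be read against chance. Untreated Atp7b-/- array 1 was low for Slco1b2 (12.67, next 13.10), Thrb (6.00, next 6.23), Mid1ip1 (10.27, next 11.70) and Ecsit (8.79), and high for Sult1e1 (9.35, next 7.41). Zinc-treated array 2 was low for Mid1ip1 (10.48, next 11.20) and high for Fzd8 (7.52, next 7.18), and zinc-treated array 3 was low for Pstk (8.10, next 8.17). Ecsit and Fzd8 were likewise named for their likeness, to Thrsp and Dio1. In wild type, array 2 was low for Slco1a1 (12.77, next 12.98), array 3 high for Selenoh (8.92, next 8.44) and array 1 low for Igfals (10.13, next 10.35).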

How the results depend on the processing

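Over 22 other settings the difference of untreated Atp7b-/- from wild type stayed between -2.71 and -2.33 for Dio1 and between -1.85 and -1.41 for Serpina7. Between zinc-treated and untreated mutants 1190 genes were called, 1861 with array weights, 614 without zinc-treated arrays 2 and 3, and 689 to 1158 without any 1 array (689 without Atp7b-/- array 4). Between zinc-treated mutants and wild type 1386 were called, 699 without zinc-treated arrays 2 and 3 and 932 to 1639 without any 1 array. Of 42 thyroid pathway genes, 5 passed with zinc against untreated, 2 without zinc-treated arrays 2 and 3, and 1 to 7 without any 1 array: 1 without Atp7b-/- array 4, 2 without zinc-treated array 1 or 2, and 3 without zinc-treated array 3. Against wild type 3 passed with zinc, 5 under quantile normalization, 5 when dim genes were left out, 5 when only the groups compared were fitted, and 3 to 6 without any 1 array (6 without Atp7b-/- array 1). Quantile normalization moved the higher share of calls with zinc against untreated from 26.0% to 39.8%, and for the 42 genes from 2 up and 3 down to 4 up and 2 down. Against wild type it took the 42 genes with zinc from 1 up and 2 down to 1 up and 4 down. Txnrd1 differed with zinc against untreated by -0.36, but averaging its probe sets gave 0.10. The causes were not tested. With the replicate number as a block, 4449, 1171 and 1353 genes were called (4480, 1190 and 1386 without it) and 16, 5 and 3 of the 42. Deviations of same-numbered arrays correlated at -0.13 to 0.237, above 0.1 in 5 of 12 pairs, and 10 of 24 array-to-group matches were best for the same number. These values do not settle whether same-numbered arrays belong together. The sample titles state no pairing, so the numbers were used only in the block fit. Values near the top or bottom of the scale limit Ttr, Alb, Rbp4, Crym, Sult1e1 and Slc7a8. Thrb, with group means of 6.53, 6.18 and 6.37, lay below the median gene mean of 6.58 in every group.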

Other observations

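Of 11 measured relatives of Slc16a10 in the monocarboxylate transporter family, 2 rose and 3 fell in untreated Atp7b-/- against wild type, beside 24.6% of all genes called. Slc16a5 was 5.28 to 5.93 in wild type, 7.74 to 8.11 in untreated mutants and 5.97 to 7.14 with zinc. It rose by 2.20 (adjusted p = 5.17e-06), by 1.13 when its probe sets were averaged, and was 1.40 lower with zinc than without (adjusted p = 0.00151). Slc16a7, a carrier of pyruvate and lactate, rose by 0.84 (adjusted p = 0.00356). Slc16a6 was 7.82 to 8.55 in wild type, 6.44 to 7.28 in untreated and 6.37 to 6.99 in zinc-treated mutants. It fell by 1.31 (adjusted p = 0.000254) and differed by -0.07 between the mutant groups, so both lay below wild type. All p-values are limma's.

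Of 8 blood carriers of other hormones and vitamins, 4 fell in untreated mutants and 0 rose, beside 10.3% of all genes lower and 14.3% higher. The call of Igfbp4 (-0.19, adjusted p = 0.0498) was lost in 16 of 22 other settings. Serpina6, the corticosteroid-binding relative of Serpina7, differed by -0.05 and did not pass (adjusted p = 0.896). Igfals, the carrier partner of insulin-like growth factors, fell by 0.72 without zinc (adjusted p = 0.000149) and by 0.75 with it (adjusted p = 0.000369). Igfbp2 fell by 0.85 (adjusted p = 0.00755) and was 1.11 higher with zinc than without (adjusted p = 0.00522).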
